A study of Mus musculus with 5 samples.

Results

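Unwounded back skin of 2-year-old mice was compared with unwounded back skin of 8-week-old mice on miRNA arrays, with the 1 aged array set over the 1 young array. A miRNA was included when the mean intensity of its 2 spots exceeded 2 times the 95th percentile of the empty control spots on at least 1 of these arrays. This held for 339 of the 1900 mouse miRNAs on the array. All samples were back skin of female mice at the telogen (resting) stage of the hair cycle, hybridised with 1 dye. The other arrays of the series held wounds of the 2-year-old mice at days 3, 5 and 7 after a punch biopsy through the full skin thickness, and they are used below only where the comparison of unwounded skin calls for them. Neither group carried a transgene or treatment in the labels, the strain was not given in the sources used here, and neither was the number of animals behind an array. With 1 array for each age there was no replicate check, no difference was tested and no p-value is given, so age and array cannot be told apart.

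MicroRNAs (miRNAs) are short single-stranded RNAs that guide Argonaute proteins to messenger RNAs, chiefly through pairing of the seed, the stretch of bases near the 5′ end, and lower the stability or translation of the target. Each is cut from a hairpin whose 5′ and 3′ arms can both give a mature miRNA, and miRNAs with the same seed are grouped in a family with overlapping targets. In skin, the miR-200 family, miR-203 and miR-205 are hallmarks of the epithelium, miR-1 and miR-133 of striated muscle, miR-451a of red blood cells, and miR-142 and miR-223 of leukocytes.

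The sequences below are those of miRNAs whose ratios between the 2 arrays are set side by side in the text. In each, the seed (bases 2 to 8, counted from 1 at the 5′ end) is in capitals. The first was the miRNA with the highest aged over young ratio, and the next 2 are the arms of the miR-133b hairpin.
miR-31-5p: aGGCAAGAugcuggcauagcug
miR-133b-3p: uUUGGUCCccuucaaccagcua
miR-133b-5p: gCUGGUCAaacggaaccaaguc
The miR-29 family, miR-99a with miR-100, and 3 miRNAs of the let-7 family are shown because their members share a seed and differ by few bases elsewhere, but had different ratios.
miR-29a-3p: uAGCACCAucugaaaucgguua
miR-29b-3p: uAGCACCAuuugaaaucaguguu
miR-29c-3p: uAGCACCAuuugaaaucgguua
let-7a-5p: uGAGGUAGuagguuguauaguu
let-7e-5p: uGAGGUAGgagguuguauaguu
miR-98-5p: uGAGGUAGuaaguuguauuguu
miR-99a-5p: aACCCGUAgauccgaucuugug
miR-100-5p: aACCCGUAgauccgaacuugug
The last set is let-7g with miR-3962, whose sequence lies almost wholly within that of let-7g, and the arms of the miR-6965 hairpin, whose ratios lay on opposite sides of the median.
let-7g-5p: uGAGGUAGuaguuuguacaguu
miR-3962: aGGUAGUAguuuguacauuu
miR-6965-5p: aGAGGGAGgcuauugggcaggaga
miR-6965-3p: uCUGUGCUcggucucgcuccag

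Sequences and positions are those of RefSeq on the GRCm38.p6 assembly, in which 277 of the 339 miRNAs had the same mature sequence as on the array. In that table miR-31-5p lies at chr4:88910614-88910635 on the minus strand, within the long non-coding RNA gene Gm49890. miR-133b-5p lies at chr1:20682797-20682818 and miR-133b-3p at chr1:20682834-20682855, both on the plus strand and within Lincmd1, a long non-coding RNA gene. The miR-29 genes form 2 clusters. miR-29c-3p, at chr1:195037600-195037621, neighbours a copy of miR-29b-3p at chr1:195037091-195037113, both within the non-coding gene A330023F24Rik on the plus strand. miR-29a-3p, at chr6:31062673-31062694, neighbours the other copy, at chr6:31063025-31063047, on the minus strand, with no overlapping gene listed. let-7e-5p is at chr17:17830366-17830387 in Spaca6, miR-98-5p at chrX:151913229-151913250 in Huwe1, and let-7g-5p at chr9:106178846-106178867 in Wdr82, all protein-coding genes and all on the plus strand. miR-99a-5p, at chr16:77598940-77598961, and miR-100-5p, at chr9:41531437-41531458, are on the plus strand, and miR-3962 is at chr1:194822035-194822054, with no overlapping gene listed for these. miR-6965 lies within Ccnf, which encodes cyclin F, with the 3p arm at chr17:24240884-24240905 and the 5p arm at chr17:24240919-24240942 on the minus strand. Whether these positions are exonic or intronic was not given in the table.

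Of the 339 miRNAs, 210 were bright on both arrays, 129 were bright on the young array alone, and 0 on the aged array alone. To be bright, a miRNA had to exceed 210.9 in aged and 214.4 in young skin. Just inside it were miR-1843b-5p, miR-5132-5p and miR-409-3p, with young intensities of 216.3, 216.9 and 218.6, and just outside it were miR-203-5p, miR-7045-3p and miR-7038-5p, at 213.3, 212.8 and 212.5. All 339 were detected on the young array, that is, they exceeded that percentile itself, whereas 18 were undetected in aged skin. The 129 miRNAs bright on the young array alone had to be dimmer on the aged array by the way they were chosen, and their number is no measure of change.

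Most bright miRNAs were dimmer on the aged array by a shared factor. Scanned intensity was lower there for 201 of the 210 miRNAs bright on both arrays, and their median ratio of aged over young was 0.460. Over all 1900 miRNAs, most of which were not detected, the median intensity was 95.8 in aged and 94.5 in young skin. The 11 spike calibration controls had ratios from 0.321 to 1.13, with a geometric mean of 0.800, and the 5 probes for 5S ribosomal RNA from 0.855 to 1.14. Quantile normalization over the 5 arrays, which gives all arrays 1 distribution, moved the median of the same 210 miRNAs to 1.16. The intensities, set against the total RNA loaded, cannot tell fewer cells of a type from less miRNA per cell. Because the shared factor depended on the scaling, each ratio below is the normalized ratio of aged over young divided by the median ratio of the 210 miRNAs, and is called the relative ratio: 1 means that a miRNA followed the bulk, and 2 that its ratio was 2 times that of the bulk.

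**Figure D1:**
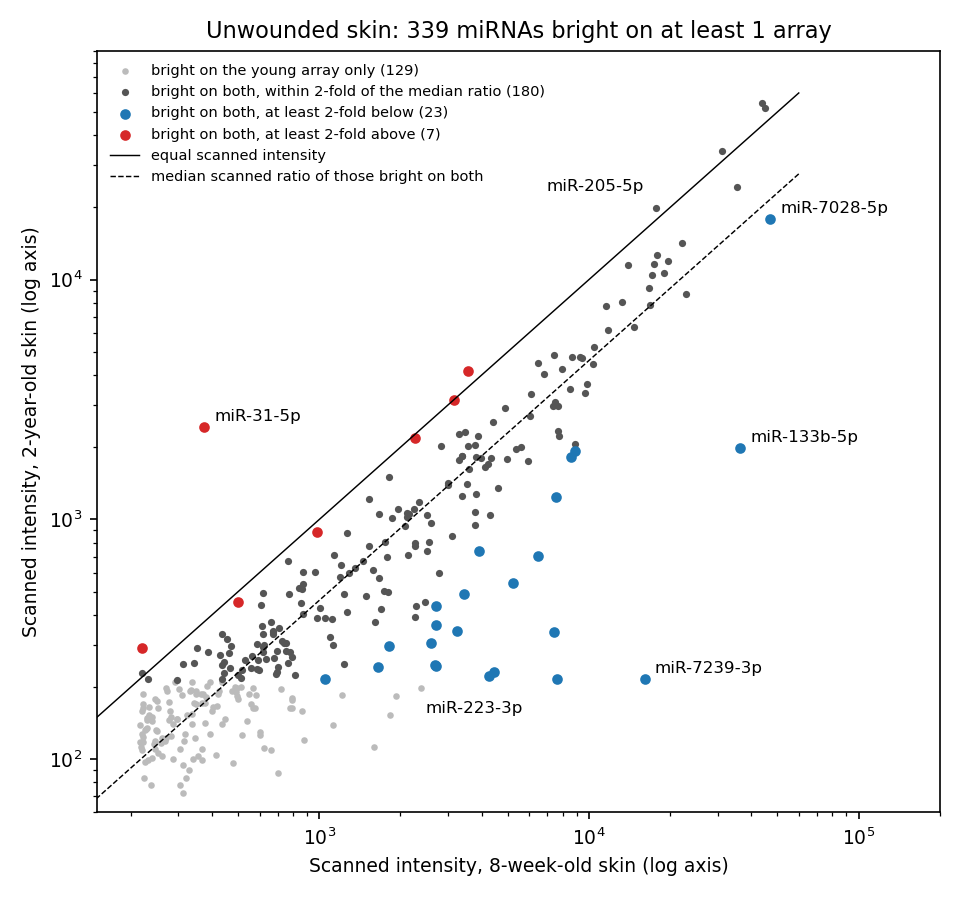
Scanned intensity of each of the 339 miRNAs in 8-week-old (x axis) and 2-year-old (y axis) unwounded skin, both on log axes, with 1 array for each age and each point the mean of 2 spots. Most points lie along the dashed line, the median scanned ratio of 0.460, with miR-31-5p above the line of equality and a tail of miRNAs, led by miR-7239-3p and miR-133b-5p, far below both lines.

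Relative ratios were unevenly spread around the bulk, with more miRNAs far below it than far above it. Of the 210 miRNAs bright on both arrays, 7 (3.33%) were at least 2-fold above the median, 23 (11.0%) were at least 2-fold below it and 180 lay within 2-fold. Over the 779 miRNAs detected on at least 1 array these shares were 1.03% and 7.96%. The 5th and 95th percentiles of the relative ratio were 0.302 and 1.89, and the quartiles 0.795 and 1.26. The aged over young ratios from the 2 spots were close, with an SD of 0.14 for their mean on the log2 scale. For 2 of the 210 miRNAs these ratios differed by over 2-fold. Intensities of repeat spots on 1 array could differ more, with 20498 and 11654 for miR-7239-3p on the young array. That error describes the array and not the animals. With other forms of normalization and background correction, 4 of the 7 and 18 of the 23 stayed past 2-fold in every one of the 9 settings compared. With 1 factor for each array, and likewise with the authors' processed values, 12 were higher and 28 lower.

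miR-31-5p stood alone above the bulk. This miRNA is known for its induction in keratinocytes of inflamed and healing skin. Its 2 spots read 2731 and 2107 on the aged array and 420 and 329 on the young array. The relative ratio was 11.4, and it lay between 9.64 and 18.1 over the settings compared. The opposite arm, miR-31-3p, was not bright, but it was detected on the aged array, at 161, and not on the young array, at 90.2. In the wounds of aged mice, miR-31-5p read 444 at day 3, 1087 at day 5 and 1479 at day 7, all below the unwounded aged skin and above the unwounded young skin.

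The other miRNAs at the upper end were close to the 2-fold line. miR-210-3p, the miRNA best known as a target of hypoxia-inducible factors, read 290 in aged and 219 in young skin, near the level for bright spots, with a relative ratio of 2.39. miR-5112 had 2.37, miR-6965-5p 2.31, miR-3535 2.16, miR-744-5p 2.11 and miR-92a-3p, of the miR-17-92 cluster, 2.03. miR-652-3p, miR-451a and miR-205-5p, at 1.99, 1.97 and 1.97, just missed the line. Scanned intensity was higher on the aged array than on the young array only for miR-31-5p, miR-210-3p, miR-5112, miR-3535 and miR-205-5p among these 10, and the other 5 were dimmer there by less than the bulk. miR-205-5p, a marker of basal keratinocytes, was among the 5 brightest probes of the aged array, at 19978 against 17762 on the young array.

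The miRNAs furthest below the bulk were a mixed group. miR-7239-3p had the lowest relative ratio, 0.0284, or 35.2-fold lower. Its spots read 282 and 148 on the aged array and 20498 and 11654 on the young array. miR-7081-5p, located in Dnmt1, the gene of the maintenance DNA methyltransferase, read 215 in aged and 7624 in young skin (relative ratio 0.0775), and its other arm was detected in neither. Both were thus only just above the level for bright spots in aged skin. miR-3962 read 230 and 4436 (0.126), miR-3970 read 223 and 4241 (0.127), and miR-6965-3p read 339 and 7427 (0.130). All 3 were dim in aged skin. miR-7028-5p, the brightest probe of the young array, read 17885 in aged and 46862 in young skin. Its relative ratio was 0.299 after quantile normalization but 0.827 with 1 factor for each array, and it was the only one of the 10 lowest that did not stay past 2-fold in every setting.

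**Figure D2:**
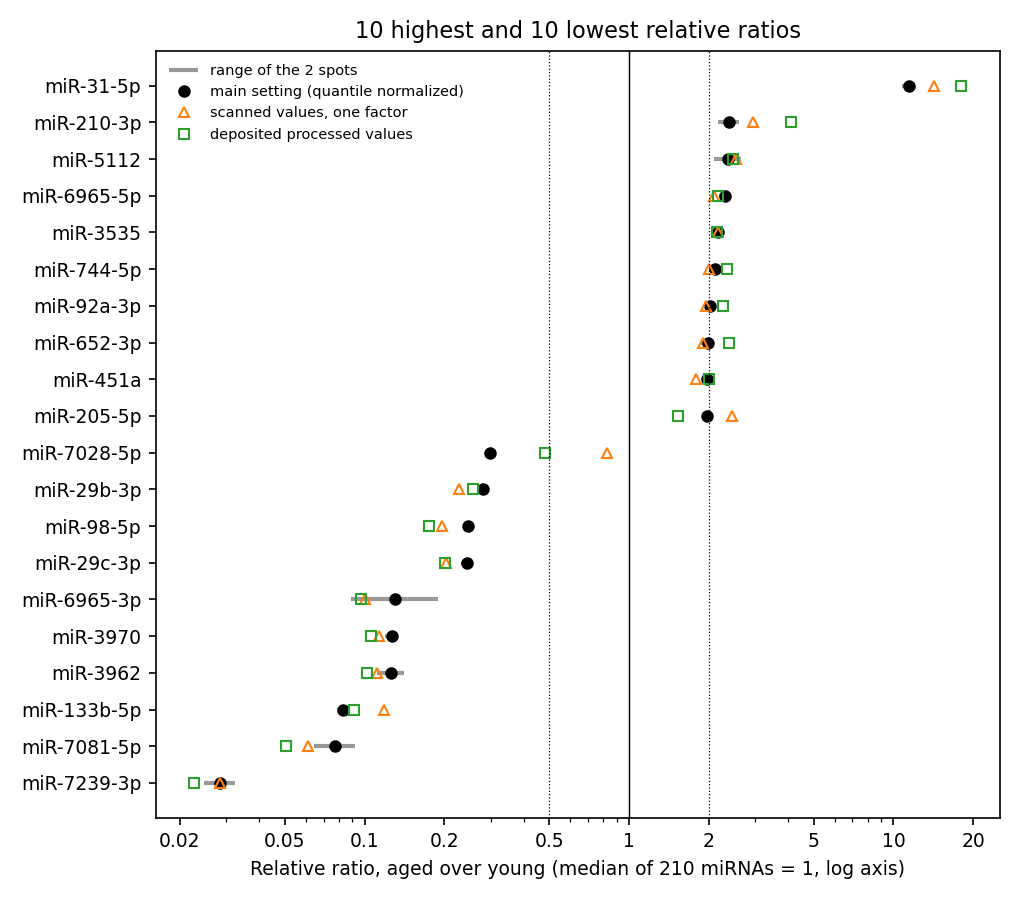
Relative ratio of aged over young unwounded skin (log axis, 1 is the median of 210 miRNAs) for the 10 highest and 10 lowest miRNAs bright on both arrays. Black points are the main values, grey bars span the 2 spots, triangles use scanned values with 1 factor for each array, squares the authors' processed values, and dotted lines mark 2-fold; miR-31-5p is apart at 11.4, and miR-7028-5p moves from 0.299 to 0.827 between settings.

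Among the muscle miRNAs, the probes for the 2 arms of the miR-133b hairpin had very different ratios. Of the 11 skeletal muscle miRNAs on the array, 7 were included and 6 were bright on both arrays, all 6 below the median, with a list median of 0.827 against 1 for all 210. With 1 factor for each array, and with cyclic loess, 2 of the 6 (miR-133a-3p and miR-133b-3p) were above it, and the list median was 0.850 and 0.847. miR-1a-3p, abundant in striated muscle, read 8734 in aged and 22934 in young skin (relative ratio 0.593). miR-133a-3p read 11977 and 19609 (0.865), and miR-206-3p, which is enriched in skeletal muscle, 1405 and 3520 (0.937). miR-133b-3p was like them, at 10689 and 18909 (0.807). By contrast, miR-133b-5p from the same hairpin read 1983 in aged and 36275 in young skin, a relative ratio of 0.0832, and was the only one of these 6 past 2-fold. miR-1a-1-5p, bright on the young array alone, read 111 and 305 (0.479). Both arms of miR-133a had nearly the same relative ratio, 0.865 and 0.847. How far the miR-133b-5p probe, the brighter of its hairpin on the young array, read that arm alone was not tested.

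In most hairpins the 2 arms had similar ratios. Both arms were among the 339 miRNAs for 31 hairpins, and 19 of these pairs had relative ratios within 1.5-fold of each other and 7 were over 2-fold apart. Of the 11 pairs with both arms bright on both arrays, 6 were within 1.5-fold, and 4 were over 2-fold apart. The close ones included miR-199a, with 0.897 for the 3p and 0.891 for the 5p arm, miR-574, with 1.09 and 1.11, and miR-22, with 1.07 and 0.990. The 4 that parted were miR-6965 (0.130 for the 3p and 2.31 for the 5p arm), miR-133b (0.807 and 0.0832), miR-7028 (1.85 and 0.299) and miR-486a (0.687 and 1.73). The 2 spots of miR-6965-3p were themselves apart, with relative ratios of 0.189 and 0.0889. In miR-6965, miR-7028 and miR-486a, 1 arm was above the bulk and the other below.

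Members of a seed family often parted as well. There were 27 seeds shared by at least 2 miRNAs bright on both arrays, with 80 miRNAs among them. In 13 of these families all members were within 1.5-fold of each other, while 8 spanned 2-fold or more, and the median span was 1.58-fold. The miR-29 family, which represses collagens and other matrix genes, spanned most, 4.18-fold. miR-29a-3p read 4756 in aged and 9250 in young skin, a relative ratio of 1.02. miR-29b-3p, at 541 and 5209, had 0.280, and miR-29c-3p, at 248 and 2677, had 0.245. Between miR-29a-3p and miR-29c-3p the only substitution is C10U, outside the seed.

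The let-7 family, best known for restraining growth genes in differentiated cells, repeated this on a larger scale. Its list held 22 miRNAs on the array, of which 13 were included and 11 were bright on both arrays. The list median was 0.799, and 10 of the 11 were below the bulk, or 8 of them (let-7a-5p, let-7c-5p and let-7f-5p being above) with 1 factor for each array, where the list median was 0.872. let-7c-5p, at 8098 in aged and 13286 in young skin, had the highest relative ratio, 1.01, and let-7a-5p, at 9245 and 16675, had 0.876. let-7b-5p, let-7d-5p, let-7f-5p and let-7i-5p lay between 0.798 and 0.809. let-7e-5p, at 703 and 6498, was down to 0.302, and miR-98-5p, at 245 and 2708, to 0.247. From let-7a-5p, let-7e-5p differs by U9G alone and miR-98-5p by G11A and A19U, whereas let-7f-5p, which differs by G12A, stayed with the bulk of the family.

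Further families held a single low member beside close relatives. miR-100-5p read 1241 in aged and 7549 in young skin (relative ratio 0.423), whereas miR-99a-5p read 3492 and 8539 (0.853). The only substitution from miR-99a-5p to miR-100-5p is U16A. miR-199b-5p, known from fibroblasts, had 0.391 and miR-199a-5p, from which it differs by C10U, 0.891. miR-26b-5p had 0.463 and miR-26a-5p, which differs from it by 2 edits, 0.895. In the miR-15/16 family, whose members restrain cyclins, miR-15a-5p had 0.438 beside 0.941 for miR-16-5p, 1.12 for miR-195a-5p and 1.26 for miR-15b-5p. miR-20b-5p had 0.487, with 1.06 for miR-20a-5p, 1.27 for miR-17-5p and 1.65 for miR-93-5p of the same seed. The spread also went upwards: miR-92a-3p had 2.03 and miR-92b-3p 1.90, against 0.940 for miR-25-3p.

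**Figure D3:**
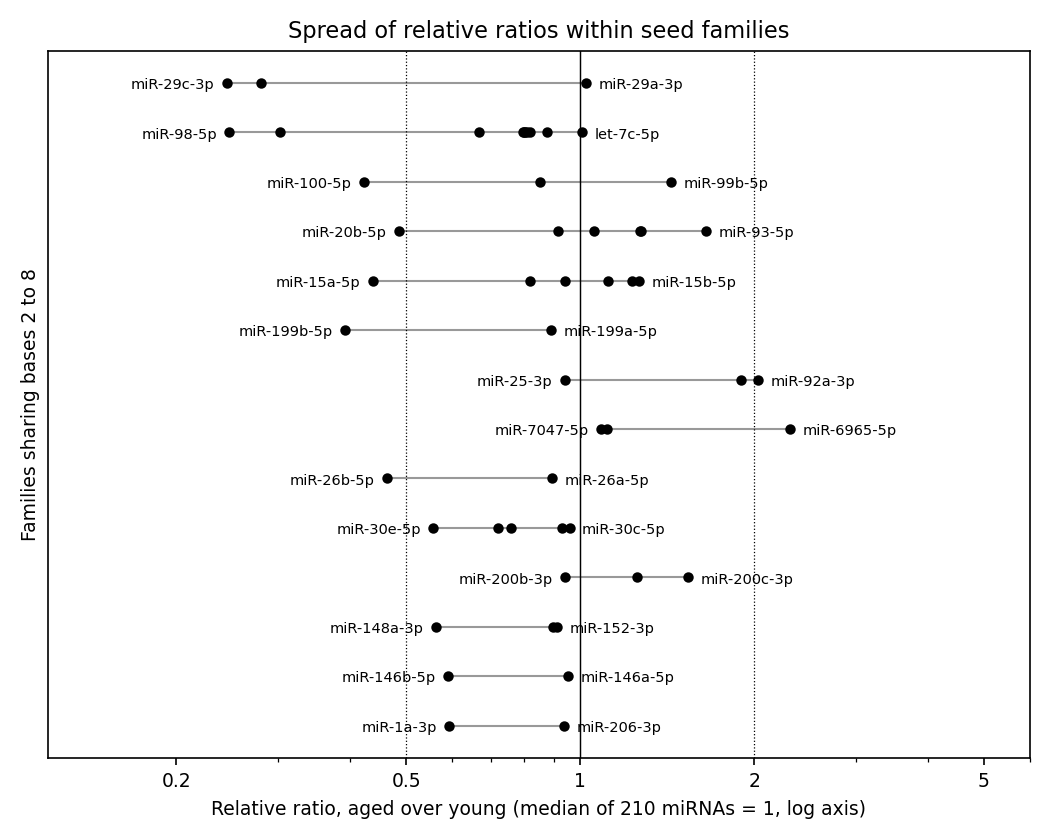
Relative ratio of aged over young (log axis, 1 is the median of 210 miRNAs) in families of miRNAs that share bases 2 to 8 and span at least 1.5-fold. Each row is a family and each point a miRNA bright on both arrays, with the lowest and highest named and 2-fold marked by dotted lines; the miR-29 row spans 4.18-fold, and 7 other rows span at least 2-fold.

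Close sequence relatives were then sought for all 210 miRNAs. Likeness was the number of edits (substitutions, insertions or deletions) that turn one mature sequence into another. A relative within 3 edits among the 339 miRNAs was found for 77 of the 210, whose median relative ratio was 0.913, and 11 of them were at least 2-fold below the bulk and 1 above. For the 133 without such a relative the median was 1.11, and 12 were below and 6 above. Among the lower ones with a relative were miR-3962 and miR-3970. The 20 bases of miR-3962 fit within let-7g-5p with 1 edit and share a run of 17 bases with it, and those of miR-3970 fit within let-7i-5p with 2 edits. let-7g-5p read 2233 in aged and 7719 in young skin, a relative ratio of 0.668, against 0.126 for miR-3962. let-7i-5p had 0.809, against 0.127 for miR-3970. The intensities of such near copies are uncertain, and how far a probe reads the RNA of a relative was not tested. Among the 210 miRNAs, 72 pairs lay within 3 edits of each other, and 18 of these pairs spanned at least 2-fold. In all 18 the member dimmer on the young array had the lower relative ratio, as in 51 of the 72. Several miRNAs recur in these pairs, and the part of probe brightness in the differences was not tested.

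The array also carries 4 pairs of control probes, matched here by names that differ by the letters PM or MM, which the files do not spell out. In the middle pair below (a-PUC2PM and a-PUC2MM2d) the names differ in their ending as well. In 1 of these pairs the MM probe, at 96.1 in aged skin, was not detected there, and only the other 3 pairs are compared. In these the MM ratios of aged over young were 0.505, 0.268 and 0.242, and those of the PM partners, in the same order, 0.783, 0.897 and 1.20. For the last pair, MM intensity was 0.567% of PM intensity on the unwounded aged array and 2.81% on the young array, with 1.04%, 1.49% and 1.61% on the aged arrays of days 3, 5 and 7. For the middle pair it was 0.632% in unwounded aged and 2.12% in young skin, with 0.732%, 0.711% and 1.08% in the wounds. In the first pair the share was 47.4% in unwounded aged and 73.4% in young skin, with 61.0%, 58.2% and 62.3% in the wounds. The young array had the highest MM share in these 3 pairs, and the day 7 array the next. In the pair left out, the order differed, with 0.417% on the young array and 0.448% on the day 7 array. The part of these differences in the low ratios of single miRNAs was not tested.

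Among the 10 lowest miRNAs, the scanned intensity was highest on the young array for 10, and the day 7 array came next for 9. miR-133b-5p read 3572 at day 3, 535 at day 5 and 26218 at day 7 in aged wounds, and miR-7239-3p 324, 275 and 3412. miR-29c-3p read 231, 127 and 456 at these times. All 3 were brightest at day 7 among the aged arrays, and no aged array reached the young one. These miRNAs were chosen for a high young and a low unwounded aged value, so the first place of the young array follows in part from the choice. The order of the wound arrays among themselves was not part of that choice. The counts below also require the young array to be first and day 7 to exceed unwounded aged skin, which the choice favours. Over all 210 miRNAs the young array was first and the day 7 array next for 96 (45.7%). This order held for 18 (78.3%) of the 23 miRNAs furthest below the bulk and for 78 (41.7%) of the other 187. The young array alone was first for 21 (91.3%) of the 23 and 146 (78.1%) of the 187. These shares thus differ in part by the choice. The cause of the day 7 order was not tested.

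**Figure D4:**
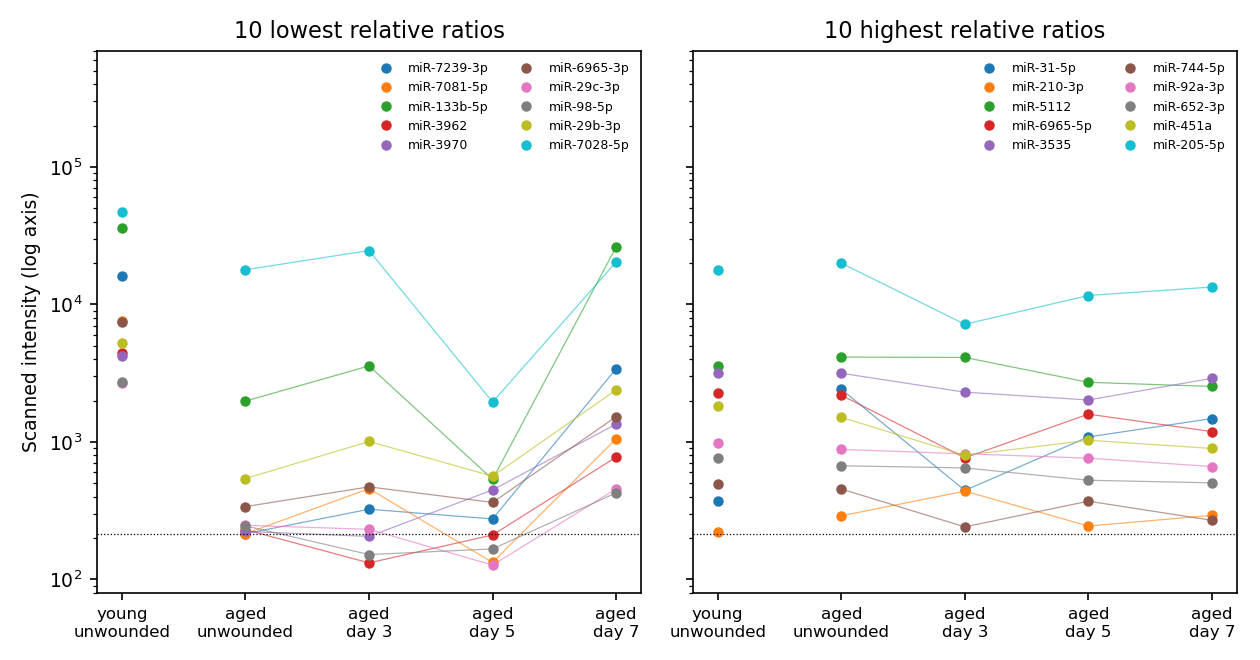
Scanned intensity (log axis) of the 10 miRNAs with the lowest (left) and the highest (right) relative ratio on each of the 5 arrays, with 1 array for each condition, thin lines joining the aged arrays and a dotted line at the level for bright spots on the young array. On the left the young array is highest for all 10, with day 7 the next for 9; on the right miR-31-5p is lowest on the young array.

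Base composition and brightness went along with the relative ratio too. When the 210 miRNAs were split by GC content into 4 groups of similar size, the median was 0.898 in the lowest group (27.3% to 42.9%) and 0.955, 1.18 and 1.10 in the next ones. The lowest group held 9 of the 23 miRNAs below the bulk and the highest group 8, so the low ones were found at both ends. Across the 210 miRNAs, Spearman's rho was 0.22 between GC content and relative ratio, and -0.40 between intensity on the young array and relative ratio. The latter value contains the young array on both sides, and with 1 factor for each array it was -0.19. miRNAs are not independent replicates, and these values are descriptions of 2 arrays.

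Epithelial miRNAs were present at high intensity, as the label of skin requires, and miR-122, which marks liver, was not among the 339. Of 16 epithelial miRNAs on the array, 8 were included, all bright on both arrays, with a median relative ratio of 1.28, and 5 were above the bulk. miR-203-3p, which limits the stem cell state of keratinocytes, read 11451 in aged and 13981 in young skin, with 1.31. Within the miR-200 family, which holds back the zinc-finger repressors Zeb1 and Zeb2, miR-200c-3p had 1.54 and miR-429-3p 1.26. miR-200b-3p had 0.942, miR-200a-3p 0.905 and miR-141-3p 0.635. The 2 hairpins miR-200c and miR-141 come from 1 cluster, and their ratios lay on either side of the bulk. In aged skin miR-200c-3p read 2266, but miR-141-3p, at 224, was only just above the level for bright spots. Only miR-31-5p of this list was past 2-fold, although miR-205-5p was past it too with 1 factor for each array (2.45) and with cyclic loess (2.25).

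Of the 8 leukocyte miRNAs on the array 5 were included, and only 1 was bright on both arrays. This was miR-150-5p, found in mature lymphocytes, at 372 in aged and 1603 in young skin (relative ratio 0.670). The other 4 were bright on the young array alone, beside 129 of all 339 miRNAs. They had to be dimmer on the aged array by the way they were chosen. miR-223-3p, a myeloid miRNA, read 197 and 2387 (0.210). miR-142a-5p, expressed through the blood lineages, read 121 and 878 (0.232), and miR-155-5p, induced in activated leukocytes, 123 and 261 (0.655). With 1 factor for each array these 3 had 0.179, 0.297 and 1.04. miR-142a-3p was detected on the young array, at 700, and not on the aged array, at 87.6, so that it was at least 4.49-fold lower relative to the bulk. Summed over all 8 probes of the list, dim ones included, the scanned intensity was 1144 in aged and 6103 in young skin, a ratio of 0.188. This ratio is not relative to the bulk, whose median scanned ratio was 0.460, and no background was taken from the sums. Of 3 inflammation-related miRNAs bright on both arrays, miR-21a-5p had 0.505, miR-146b-5p 0.591 and miR-146a-5p 0.954, all below the bulk and none past 2-fold. With the processed values miR-146a-5p was above the bulk (1.08). miR-21a-5p was past 2-fold with the processed values (0.403), cyclic loess (0.474) and quantile normalization of the 2 arrays alone (0.488). It was also past 2-fold with the empty spots subtracted (0.486) and with the first spot alone (0.499). miR-146b-5p was past 2-fold with 1 factor for each array (0.462) and with cyclic loess (0.481). The part of leukocyte content in the ratios of other miRNAs was not tested.

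Red blood cell and vessel miRNAs lay nearer the bulk or above it. miR-451a, the main erythroid miRNA, read 1510 in aged and 1816 in young skin (1.97), and miR-486a-5p 439 and 607 (1.73). The other arm, miR-486a-3p, was at 0.687. For vessels, miR-126a-3p, specific to endothelium, had 0.918, and miR-143-3p and miR-145a-5p of smooth muscle 1.12 and 0.912. miR-221-3p and miR-222-3p had 1.31 and 1.52. None of the vascular miRNAs was past 2-fold. miR-34a-5p, a target of p53 that is linked to senescence, read 490 and 772, with 1.53.

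**Figure D5:**
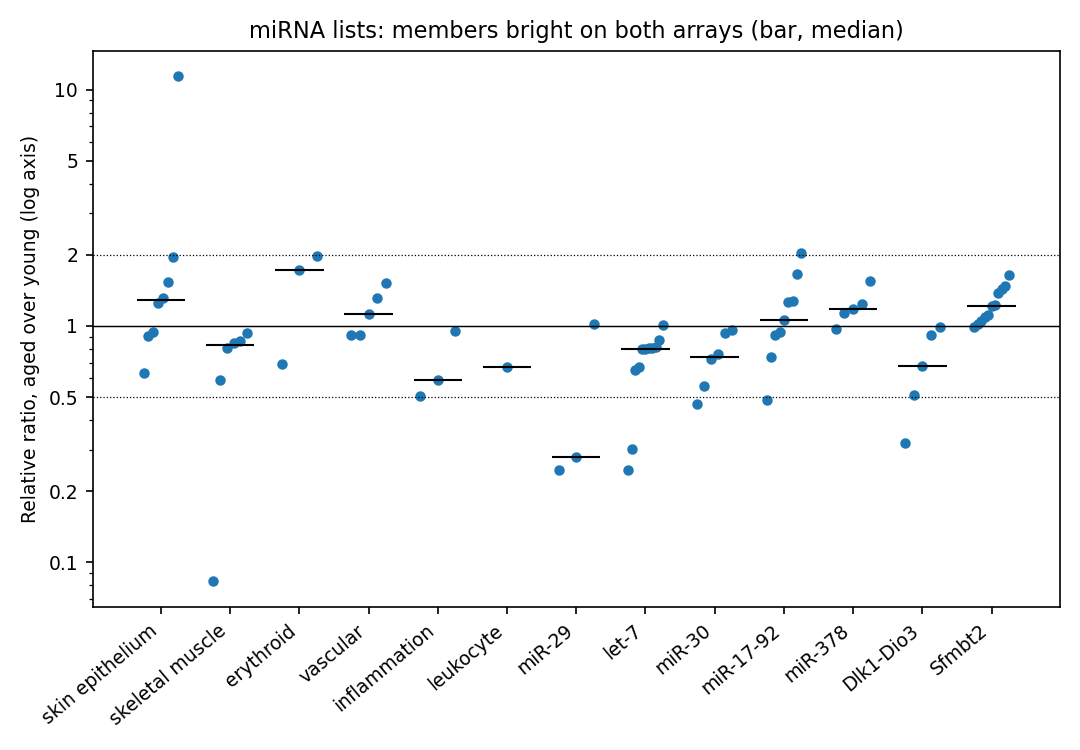
Relative ratio of aged over young (log axis, 1 is the median of 210 miRNAs) for miRNAs bright on both arrays in 13 lists of cell types, families and genomic clusters, with bars at the list medians and dotted lines at 2-fold. The Sfmbt2 list sits mostly just above 1 and the let-7, miR-30 and Dlk1-Dio3 lists mostly below it in this normalization, while single miRNAs such as miR-31-5p and miR-133b-5p are far from the rest of their list.

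The list for the Dlk1-Dio3 locus, whose miRNAs are expressed from the maternal chromosome, held 85 miRNAs on the array, of which 23 were included. It was written from general knowledge and may not hold every miRNA of the locus. Of these 5 were bright on both arrays, all below the bulk, with a median of 0.677 (miR-341-5p, at 0.995, turned to 2.51 with 1 factor for each array), and 18 were bright on the young array alone, 8 of them not detected in aged skin, beside 129 and 18 over all 339 miRNAs. miR-668-3p, at 304 in aged and 2589 in young skin, had 0.320 and was the only one of the 5 past 2-fold. miR-127-3p, which is antisense to the imprinted gene Rtl1, read 390 and 2272, with 0.509, or 0.372 with 1 factor for each array. miR-411-3p, at 104 and 415, was 2.85-fold lower relative to the bulk, and miR-376b-3p, at 103 and 356, 2.50-fold. Neither was detected in aged skin, and for both the bound was the measured ratio itself. Their relative ratios were 0.406 and 0.461 with the first spot alone, and 0.300 and 0.343 with the second. The cluster in an intron of Sfmbt2, a Polycomb gene, is the other large cluster. Of the 70 miRNAs of its list on the array 21 were included and 11 were bright on both arrays. Their median was 1.22, 10 of 11 were above the bulk, and the range was 0.986 to 1.64, with none past 2-fold. With 1 factor for each array 8 of the 11 were above the bulk. Many of these Sfmbt2 miRNAs are near copies of each other, and their probes are not independent.

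The remaining lists were mostly within 2-fold. All 6 miR-30 miRNAs bright on both arrays were below the bulk, with a median of 0.741 (miR-30c-5p turned to 1.08 with 1 factor for each array), and miR-30c-1-3p, at 0.469, was the only one past 2-fold. The miR-378 family, which lies partly in the metabolic regulator gene Ppargc1b, had 5 members from 0.975 to 1.55, with 4 above the bulk and all 5 above it with the processed values. The miR-23/27/24 clusters had 6 from 0.715 to 1.11, with a median of 0.931 that turned to 1.06 with 1 factor for each array, and the miR-181 family 3 from 0.955 to 1.05, of which 2 were above the bulk, or 1 with that factor. miR-10a-5p and miR-10b-5p, from the Hox clusters, had 0.794 and 0.675. miR-214-3p, which shares a transcript with miR-199a, had 1.19. Of the 3 miR-101 miRNAs included, none was bright in aged skin, and miR-101a-3p read 164 there and 794 in young skin. A further 2 bounds were set for miRNAs not detected in aged skin, at least 3.23-fold for miR-340-5p, at 96.1 and 480, and at least 2.61-fold for miR-338-3p, at 99.1 and 367. These bounds rest on quantile normalization. With 1 factor for each array, the relative ratios of miR-142a-3p, miR-340-5p, miR-411-3p, miR-338-3p and miR-376b-3p were 0.270, 0.433, 0.542, 0.588 and 0.631.

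In miR-182-5p the 2 kinds of deposited values lay far apart. miR-182-5p, of a cluster expressed in sensory and epithelial cells, read 146 and 989 on its 2 spots of the aged array, against 1480 and 1837 on the young array. Its relative ratio was 0.559 from the scanned values and 1.80 from the processed values. Of its cluster partners, miR-183-5p was above the bulk in both kinds of values, and miR-96-5p, bright on the young array alone, was below it in both (0.342 and 0.139).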

How the data were processed

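miRNA levels were measured on 1 single-colour array (LC Sciences) for each of 5 conditions, and samples were grouped from their labels. The authors deposited unnormalized scanned intensity (the median over each spot, linear, with empty background columns) and a table of processed intensity for each miRNA, also linear, whose normalization is not given in the sources used here. Unmapped columns numbered 0.

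Here limma's normexp with an offset of 50, fitted on intensities without a local background, was used on the spots. Controls were then left out, values were quantile normalized over 5 arrays and 2 spots were averaged on the log2 scale. The 95th percentile of the 4 empty spots set the detection level, and 2 times it the level for bright. Ratios were divided by the median of the 210 miRNAs bright on both arrays. A bound for a miRNA not detected on the aged array sets its young value over its own aged value or the lowest detected one, whichever is higher, also relative to that median. Processed values below 1 were set to 1. No test was possible, and precision is limited by the 1 array for each age.

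Named were the 10 highest and 10 lowest miRNAs whose spots and processed values lay on the same side, the 5 largest bounds, members of 29 lists, other arms and the 5 brightest probes of each array. The miR-182-5p values, the search for sequence relatives and the control pairs were chosen after values were seen. Members and lists were chosen with earlier results of these data known. Calculations were tested on simulated data. Tools were Python 3.11.15 (numpy 2.4.6, scipy 1.17.1, pandas 2.3.3, matplotlib 3.10.9) and R 4.3.3 (limma 3.58.1).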

Additional observations from a re-analysis of the deposited data

How the results depend on the processing

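With 1 array for each age there is no error between animals, and depth here means signal over the empty spots, which leaves miRNAs near that level with bounds only. No paired analysis was possible because each group has 1 array. The count of 7 miRNAs at least 2-fold above the median became 12 with 1 factor for each array, 11 with cyclic loess, 11 with quantile normalization of the 2 arrays alone, 12 with the authors' processed values, 15 with the empty spots subtracted, 13 over miRNAs detected on both arrays and 4 over those at 4 times the detection level. The count of 23 below it became 11 at 4 times that level and stayed within 1.5 times under these other settings. At thresholds of 1.5-fold and 3-fold, 30 and 1 were above and 35 and 13 below. The median normalized ratio of the 210 miRNAs, 1.16, became 0.462 without normalization, 1.55 after scaling to the 75th percentile, 0.425 to the median, 0.576 to the spike controls and 0.465 to the 5S probes. The cause was not tested. Centring within 4 groups of GC content was chosen after seeing the data and gave counts within 1.5 times. Of the medians of 21 lists under the alternatives, 153 stayed near the main value and 36 moved further. A shift from 0.827 to 0.753 (skeletal muscle, first spot alone) counted as near. A shift from 0.677 to 0.614 (Dlk1-Dio3 locus, cyclic loess) counted as further. The line between them was narrow and was not the spread of a list's members.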
